A study of Arabidopsis thaliana with 23 samples.

Results

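A set of 74 probe sets, of 22810 on the array, was higher after auxin was added in each of 4 backgrounds of Arabidopsis thaliana seedlings. A probe set is a group of short oligonucleotides that together read 1 transcript or a few similar ones. Members were chosen from their measured values. Their mean signal over the 23 arrays was 100 or more, and the group mean of log2(signal + 7.56) was higher by 0.5 or more in every one of 4 comparisons with and without IAA, a natural auxin of plants. Of 82 probe sets that met these thresholds 8 were set aside by name, among them GH3.3, GH3.5, LBD29, IAA29 and HAT2, all known early auxin targets. The platform annotation named 1 gene for 21 of the 74 members, these being 21 different genes, and the other 53 were unnamed here.

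The arrays were Affymetrix ATH1, each with 1 biotin-labelled RNA sample of whole Col-0 seedlings, and no transgene or mutant was used. Seedlings grew on agar with 1% sucrose for 6 or 7 days then for 1 day with shaking in liquid, where the treatment of 3 h was given. Replicates 1 to 3 (3 arrays per group) held 10 µM PEO-IAA with 1 µM IAA, 1 µM IAA, 10 µM PEO-IAA, 30 µM kynurenine and mock. Replicates 4 and 5 (2 arrays per group) held 10 µM PPBo with, as labelled, 1 µM IAA, then 100 nM IAA, 10 µM PPBo and mock. The labels do not tell whether replicates were separate cultures. The p-values then measure the spread between samples alone, which may be technical.

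Auxin acts by joining a TIR1/AFB receptor to an Aux/IAA repressor, which is then degraded and frees auxin response factors to switch on their targets. Seedlings make most of their IAA from tryptophan by way of indole-3-pyruvate, through TAA1, which kynurenine inhibits, and YUCCA enzymes, which PPBo inhibits. PEO-IAA is an IAA derivative that occupies the receptor and blocks it. Auxin-induced transcripts are known to include conjugating enzymes, repressors, transcription factors, wall-modifying enzymes and small signalling peptides, several of which act where lateral roots form and vascular tissue is laid down.

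One array stood apart before any result. The third 1 µM IAA array had a median correlation with the other arrays of 0.879, against 0.949 to 0.969 for the rest, and a 3′ to 5′ GAPDH signal ratio, which rises when RNA is degraded, of 24.4, against 1.19 to 2.05. Without this array 78 probe sets met the rule, and all 74 members were among them. Its signal lay above both other 1 µM IAA arrays for 22 members, below both for 39 and between them for 13. As a check of tissue, 2 of 7 root markers were named. PYK10, an abundant root protein, had a mean signal of 15711 and the root hair expansin EXPA7 of 103, so that their sum of 12877.6 to 22192.4 was nearly all PYK10, while the pollen receptor kinases ANX1 and ANX2 together reached at most 30.01. Photosynthesis and seed markers were not named here.

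Because the whole seedling was extracted, more cells expressing a gene and more RNA per cell cannot be told apart in any value that follows. In the 4 comparisons that defined the members, values are descriptions with no test. Over the 74 members the difference in log2 signal with 1 µM IAA ranged between 0.55 and 5.28 with a median of 1.24, or 1.39 without the third array. With PEO-IAA+IAA against PEO-IAA the median was 1.08, with 100 nM IAA against mock 0.92, and with PPBo+IAA against PPBo 1.37. Over all 14372 probe sets with a mean signal of 100 or more these medians lay between -0.01 and 0.02. The share of those 14372 that passed 0.5 was 6.14% with 1 µM IAA, 1.84% with PEO-IAA+IAA, 1.66% with 100 nM IAA and 2.37% with PPBo+IAA.

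Members differed in which background gave the smallest response. For 35 of 74 this was 100 nM IAA against mock, for 23 PEO-IAA+IAA against PEO-IAA, for 9 1 µM IAA and for 7 PPBo+IAA. The difference was larger with 1 µM than with 100 nM IAA for 56 members (60 without the third array), although these doses were given in separate replicate sets with their own mock. Both differences were used to choose the members. Of all 14372 probe sets more passed 0.5 with 1 µM IAA too, 6.14% against 1.66% with 100 nM. An effect of dose was not tested. The mean signal over all arrays ran between 103.1 and 2760.1 with a median of 270.5, so most members were of moderate brightness.

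**Figure D1:**
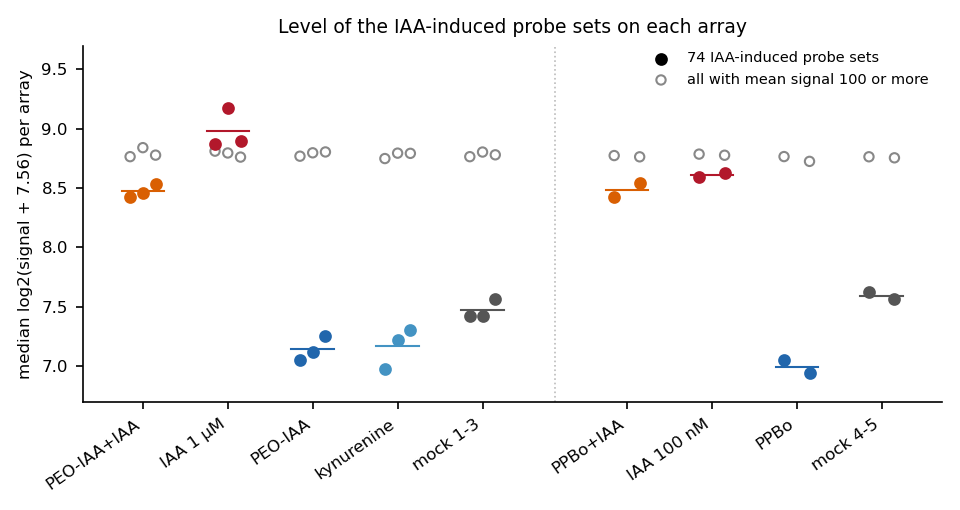
Median log2(signal + 7.56) of the 74 IAA-induced probe sets on each array (filled points, line at the group mean) and of all probe sets with a mean signal of 100 or more (open points), by group, with replicates 1 to 3 left and 4 and 5 right of the dotted line. The members sit between 8.42 and 9.17 on arrays with IAA, between 6.94 and 7.31 with an inhibitor alone and between 7.42 and 7.62 in mock, while the open points stay between 8.72 and 8.84.

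The level of the group on each array is shown in the plot of medians by array. The median member stood at 8.42, 8.46 and 8.53 on the log2 scale with PEO-IAA+IAA, against 8.87, 9.17 and 8.90 with 1 µM IAA. Kynurenine arrays were at 6.98, 7.22 and 7.31, and mock arrays of the same numbers at 7.42, 7.42 and 7.57. All 3 kynurenine arrays thus lay below all 3 mock arrays. Kynurenine arrays entered none of the comparisons that chose the members, but the mock arrays did enter. PPBo arrays were at 7.05 and 6.94, against 7.62 and 7.57 in mock.

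The named members include genes of peptide signalling. For most loci the gene table gives only a locus code, so the families mentioned from here on are general background. CLE44 (AT4G13195) encodes a CLE peptide that holds vascular stem cells undifferentiated. Its arrays with 1 µM IAA and in mock did not overlap, as in 66 of 74 members, which this comparison helped to choose. The signal was 385, 411 and 611 with 1 µM IAA, against 83.1, 108 and 169 in mock. It was 461 and 471 with 100 nM IAA, against 174 and 174 in mock, and 235, 304 and 269 with PEO-IAA+IAA, against 158, 131 and 108 with PEO-IAA. CLE44 thus gave a difference of 1.93 with 1 µM IAA and of 0.99 when PEO-IAA was present.

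AT4G37290 and AT4G37295 are next to each other in the gene table, and both encode precursors of small secreted peptides, AT4G37290 being PIP2. AT4G37295 gave the highest smallest difference among named members, 1.67. Its signal was 511, 256 and 370 with PEO-IAA+IAA, against 135, 77.9 and 125 with PEO-IAA. With 1 µM IAA it was 495, 519 and 857, against 134, 150 and 120 in mock. With 100 nM IAA it was 322 and 362, against 81.8 and 93.6 in mock. In no comparison of the rule did the arrays of AT4G37295 with and without IAA overlap. This held for 62 of 74 members, and those comparisons chose the members, so it does not set this gene apart.

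The neighbour AT4G37290 had 270, 250 and 263 with 1 µM IAA, against 31.9, 23.4 and 48.9 in mock, a difference of 2.71. With PEO-IAA+IAA it had 234, 280 and 357, against 82.6, 233 and 170 with PEO-IAA. The second PEO-IAA array therefore lay close to the lowest array with IAA. AT3G24240, a leucine-rich repeat receptor kinase, gave 0.95 with 1 µM IAA and 0.56 with 100 nM. AT5G12940, another leucine-rich repeat protein, gave 1.13, or 0.78 without the third IAA array, whose signal of 1591 stood against 827 and 687 on the other two.

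Genes of the cell wall were AT1G62770, of the invertase and pectin methylesterase inhibitor family, and AT1G67750, a pectate lyase-like protein. AT1G62770 had 688, 657 and 525 with 1 µM IAA, against 120, 158 and 183 in mock. It had 855 and 699 with 100 nM IAA, against 155 and 206 in mock. AT1G62770 thus gave similar differences at both doses, 1.98 and 2.07. AT1G67750 gave 1.38 with 1 µM IAA, 1.27 with 100 nM and 1.56 with PPBo+IAA, but 0.52 with PEO-IAA+IAA, the second lowest value inside the threshold.

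AT2G19970 and PR-1-LIKE (AT2G19990), of the CAP family that holds pathogenesis-related protein PR-1, are separated by 1 gene, AT2G19980. AT2G19970 had 1926, 2722 and 827 with 1 µM IAA, against 234, 337 and 680 in mock. PR-1-LIKE had 357, 772 and 161 with 1 µM IAA, against 110, 148 and 243 in mock. In both genes the third IAA array was the lowest of the 3, and in PR-1-LIKE it lay inside the range of mock. Without that array the differences were 2.57 for AT2G19970 and 1.68 for PR-1-LIKE, against 2.09 and 1.13 with it. In the other replicate set PR-1-LIKE had 828 and 872 with 100 nM IAA, against 171 and 139 in mock, a difference of 2.41 and the largest of any named member at that dose.

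AT5G65320, a basic helix-loop-helix factor, was the dimmest member by mean signal. It had 184, 264 and 208 with 1 µM IAA, against 80.6, 70.6 and 59.1 in mock, and 202 and 207 with 100 nM IAA, against 44.4 and 60.5 in mock. AT5G67430, an acetyltransferase-like protein, gave 2.81 with 1 µM IAA and 1.25 with 100 nM, but its mock arrays of 6.94, 57.6 and 85.4 spread widely. AT1G59740 (NPF4.3), of a nitrate and peptide transporter family, gave 0.97 with 1 µM IAA, or 0.57 without the third array, and 1.21 with 100 nM.

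The other named members had smallest differences between 0.53 and 0.83. AT4G38410, a dehydrin-like protein, gave between 0.80 and 1.81, and AT3G26760, of a short-chain dehydrogenase type, between 0.72 and 1.49. AT5G41400, a RING-type protein, gave between 0.61 and 0.85 over the 4 comparisons. AT2G28690, AT1G10380, AT3G50340, AT3G19200, AT2G36220 and AT5G57340, whose roles are not given here, reached at most 1.73 in any of the 4, which was AT2G28690 with 1 µM IAA. Among named members 15 of 21 reached a doubling of signal (a difference of 1) with 1 µM IAA, 11 with 100 nM IAA, 11 with PPBo+IAA and 8 with PEO-IAA+IAA. Of all 74 members 55, 31, 54 and 39 did so in that order. These are the differences that chose the members, so the counts only describe them. Just inside the threshold were the probe set 262118_at at 0.504, AT1G67750 at 0.519 and AT1G59740 at 0.520, and just outside it AT4G09890 at 0.498, AT4G37900 at 0.496 and AT3G48970 at 0.493.

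**Figure D2:**
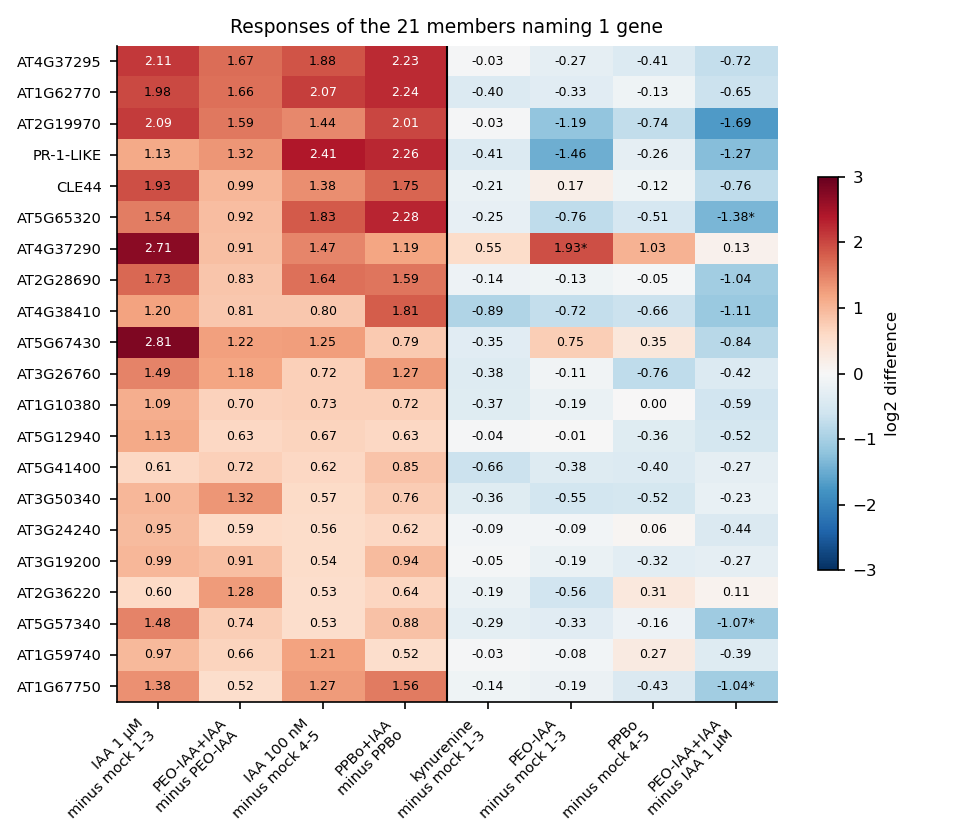
Log2 differences of the 21 members that name 1 gene (rows, highest smallest difference on top) in the 4 comparisons that chose them (left of the line, not tested) and in 4 tested comparisons (right), where an asterisk marks an adjusted p below 0.05. Right of the line most values are below 0, and the asterisks stand at AT4G37290 with PEO-IAA and at AT5G65320, AT5G57340 and AT1G67750 with PEO-IAA+IAA against IAA.

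The unnamed members held the largest values. The probe set 262099_s_at, whose suffix means that it matches more than 1 transcript, had the highest smallest difference, 3.598. It had 2750, 2825 and 1719 with 1 µM IAA, against 101, 176 and 181 in mock. With PEO-IAA+IAA it had 2127, 1795 and 1544, against 4.86, 9.88 and 3.2 with PEO-IAA. The second, 266974_at, had 442, 476 and 297 with 1 µM IAA, against 37.5, 21.1 and 48.5 in mock. Of all members 3 carried a suffix for several matches.

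Genes known from the auxin pathway were set beside the members. Of 129 loci in 10 lists (Aux/IAA, GH3 and oxidation, receptors and response factors, transport, synthesis, LBD and lateral root, HD-ZIP II, SAUR, ethylene and gibberellin synthesis), 22 could be named and 15 of these entered the test. None of the 22 was a member, since those that met the rule were left out by name. In addition GH3.1, an IAA-conjugating enzyme, and IAA30, an Aux/IAA repressor, passed all 4 differences but not the minimum signal, with means of 62.1 and 65.5. For GH3.1 the differences were 2.73 with 1 µM IAA, 1.93 with PEO-IAA+IAA, 1.86 with 100 nM IAA and 2.51 with PPBo+IAA. For IAA30 they were 1.44, 0.82, 0.73 and 1.37 in that order. LBD16, a lateral root factor, missed with 100 nM IAA alone, at 0.30.

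Kynurenine asked what the members do when auxin synthesis is lowered at TAA1. In a limma fit over all probe sets and 9 groups, 1 of 74 members was called lower at an adjusted p below 0.05 and none was called higher, where 0.0126% of all 15922 tested probe sets were called lower. The call was 266974_at, which had 4.08, 3.83 and 4.62 with kynurenine, against 37.5, 21.1 and 48.5 in mock (log2 fold change -1.83 ± 0.24 SE, limma adjusted p = 0.00632). All these values were under 61.8, the mean that a probe set had to pass to be tested. This member entered the test only through its arrays with IAA, at 199.5 to 475.8. It ended without the third mock array (adjusted p = 0.0913), with a pseudocount of 30.2 and with kynurenine and mock alone, and signals this low are the least certain. Of the 74 members 65 were below 0, or 87.8%, against 51.6% of all tested probe sets, with a median of -0.33 against -0.01.

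In 21 members every kynurenine array lay below every mock array, where 3.87% of all tested probe sets did, and in 0 above, where 3.37% did. The rule favoured low values in mock, since mock was subtracted there, so this comparison is not independent of the choice of members. What that choice did to these counts was not tested. Of the 21 named members 20 were below 0, without passing the test. AT5G41400 had 201, 244 and 283 with kynurenine, against 403, 373 and 374 in mock, with no overlap (-0.66 ± 0.19). AT3G50340 had 254, 251 and 259 with kynurenine, against 436, 293 and 275 in mock (-0.36 ± 0.19). AT4G37290 was the one named member above 0, with 31.0, 84.2 and 53.2 with kynurenine, against 31.9, 23.4 and 48.9 in mock, and these overlapped.

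PEO-IAA asked what the members do when the receptors are blocked. By the limma test 9 of 74 members fell and 2 rose, where 0.301% of all tested probe sets were called lower and 0.358% higher. Among the 9 was 266974_at, which entered the test only through its arrays with IAA. It had 1.71, 3.00 and 3.89 with PEO-IAA, against 37.5, 21.1 and 48.5 in mock. Another of the 9, 259784_at, was also low, with 3.41, 6.52 and 2.69 with PEO-IAA, against 107, 59.4 and 19.7 in mock. Calls at such low signals are the least certain. Of the members 62 were below 0 (83.8%, against 50.6% of all tested), and the median was -0.34. In 32 members every PEO-IAA array lay below every mock array, where 6.04% of all tested probe sets did, and in 3 above, where 6.12% did. Both groups were subtracted terms of the rule, so this test is not independent of the choice of members. The count of 11 calls became 6 without the first mock array, 6 without the second, 7 without the third PEO-IAA array and 4 with PEO-IAA and mock alone.

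Of the 2 named root markers, EXPA7 was lower with PEO-IAA, as most members were. In the comparisons of the rule EXPA7 gave -0.35 with 1 µM IAA, -0.66 with 100 nM IAA, -0.18 with PPBo+IAA and 1.76 with PEO-IAA+IAA. It had 47.0, 30.6 and 5.89 with PEO-IAA, against 138, 145 and 94.8 in mock, with no overlap (-2.11 ± 0.39, limma adjusted p = 0.0088). PYK10 was at 0.00 ± 0.13, and the sum of both was 14278.6 to 17454.1 with PEO-IAA, against 15106.9 to 17132.7 in mock. The part of root hair RNA in the fall of the members was not tested.

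The fall was deepest in 262099_s_at, which had 4.86, 9.88 and 3.2 with PEO-IAA, against 101, 176 and 181 in mock (-3.56 ± 0.47, limma adjusted p = 0.000283). The probe set 262045_at, singled out after its values were seen, had 90.6, 66.2 and 92.4 with PEO-IAA, against 360, 308 and 256 in mock (-1.80 ± 0.18, limma adjusted p = 2.96e-05). Both calls held whichever array was left out. Among named members AT4G37290 rose, with 82.6, 233 and 170 with PEO-IAA, against 31.9, 23.4 and 48.9 in mock (1.93 ± 0.34, limma adjusted p = 0.00574). This PIP2 gene was therefore higher with IAA and higher with the receptor blocker. Its call ended without the second mock array (0.0522), without the second PEO-IAA array (0.0525) and with PEO-IAA and mock alone (0.121). The other riser, unnamed, was 257481_at with 297, 336 and 336 with PEO-IAA, against 183, 149 and 172 in mock (0.92 ± 0.16, limma adjusted p = 0.00594), and it ended without the second mock array (0.0522).

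PR-1-LIKE had 52.8, 44.1 and 62.5 with PEO-IAA, against 110, 148 and 243 in mock, and AT2G19970 had 124, 161 and 207, against 234, 337 and 680. Neither group overlapped its mock, and neither gene passed (-1.46 ± 0.42 and -1.19 ± 0.44, limma adjusted p = 0.205 and 0.559). PR-1-LIKE passed without the third 1 µM IAA array, which enters this comparison only through the shared spread (0.0418). With the replicate numbers, which pair these arrays, as a block and without that array, both genes passed at the same fold changes, AT2G19970 at 0.000156 and PR-1-LIKE at 0.000333. With the block and all arrays kept, neither passed. The factor AT5G65320 had 39.7, 42.8 and 32.5 with PEO-IAA, against 80.6, 70.6 and 59.1 in mock (-0.76 ± 0.21, limma adjusted p = 0.194).

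PPBo asked the same at the YUCCA step, in replicates 4 and 5. Both groups were subtracted terms of the rule, so this test is not independent of the choice of members. By the limma test 17 of 74 members fell and none rose, where 0.258% of all tested probe sets were called lower and 0.107% higher, and the lowest was at -3.45. All 17 were unnamed. The lowest, 257506_at, singled out after its values were seen, had 6.92 and 2.15 with PPBo, against 122 and 121 in mock (-3.45 ± 0.37, limma adjusted p = 8.06e-05). The probe set 266974_at, which entered the test through its arrays with IAA, was low in both groups. It had 10.5 and 5.93 with PPBo, against 65.9 and 55.9 in mock (-2.13 ± 0.30, limma adjusted p = 0.00145). Both calls held whichever array was left out.

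In 46 members both PPBo arrays lay below both mock arrays, where 20.9% of all tested probe sets did, and in 7 they lay above, where 22% did. A fold change of -1 or lower on the log2 scale was reached by 24 members, or 32.4%, against 0.622% of all tested probe sets. With 2 arrays a group the count of calls was fragile. It was 4 without the fourth mock array, 7 without the fifth, 10 without the fourth PPBo array and 4 without the fifth, where the lone array left is assumed to vary like the other groups. It was 26 with PPBo and mock alone and 27 with all arrays of replicates 4 and 5, and 1 of the calls in each of these was higher.

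With PPBo 60 of the 74 members were below 0 (81.1%, against 48.7% of all tested probe sets). Named members were between -0.76 and 1.03 with PPBo and none was called, with 15 of 21 below 0. AT3G26760 had 117 and 93.7 with PPBo, against 183 and 184 in mock (-0.76 ± 0.26, limma adjusted p = 0.474). AT4G37290 had 107 and 52.9 with PPBo, against 29.7 and 36.7 in mock (1.03 ± 0.42, limma adjusted p = 0.766). In both genes the arrays did not overlap.

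**Figure D3:**
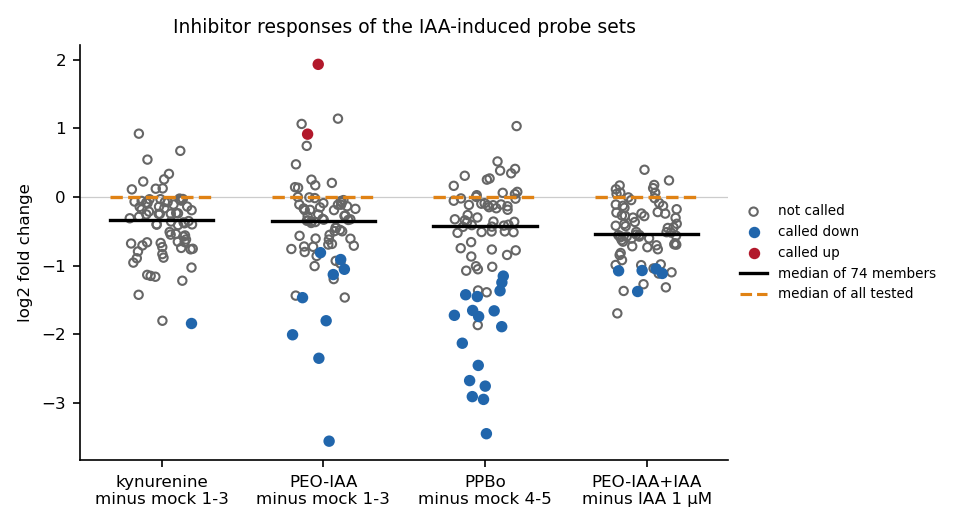
Log2 fold changes of the 74 IAA-induced probe sets in 4 tested comparisons, with filled points for adjusted p below 0.05, a black line at the median of the members and a dashed line at the median of all tested probe sets. The member medians are -0.33 with kynurenine, -0.34 with PEO-IAA, -0.42 with PPBo and -0.53 for PEO-IAA+IAA against IAA, and the calls number 1, 11, 17 and 5.

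Whether PEO-IAA lowered the members in the presence of IAA was asked by setting PEO-IAA+IAA against 1 µM IAA. Both groups were added terms of the rule, which favoured high values in each, so this test too is not independent of the choice of members. By the limma test 5 of 74 fell and none rose, where 0.119% of all tested probe sets were called lower and 0.251% higher, and the median was -0.53. In 29 members every PEO-IAA+IAA array lay below every IAA array, where 4.98% of all tested probe sets did, and in 0 above, where 4.99% did. AT5G65320 had 60.7, 98.8 and 80.9 with PEO-IAA+IAA, against 184, 264 and 208 with IAA (-1.38 ± 0.21, limma adjusted p = 0.00395), and its call held whichever array was left out. The pectate lyase-like AT1G67750 had 571, 685 and 595 with PEO-IAA+IAA, against 1249, 1447 and 1153 with IAA (-1.04 ± 0.18, limma adjusted p = 0.00931). That call ended without the third PEO-IAA+IAA array (0.0652).

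AT5G57340 had 140, 170 and 155 with PEO-IAA+IAA, against 247, 282 and 533 with IAA (-1.07 ± 0.23, limma adjusted p = 0.0475). Its call held in 4 of 23 fits that each left out 1 array, and without the third IAA array it was at -0.74 (0.153). The other calls were the unnamed 258769_at (-1.07 ± 0.14, limma adjusted p = 0.000392) and 258618_at (-1.11 ± 0.21, 0.0205), named here because the calls were few. The call of 258618_at ended without the second IAA array (0.0515), the third (0.0815), and the first (0.11) or the third (0.115) PEO-IAA+IAA array. The probe set 258769_at had 223, 217 and 239 with PEO-IAA+IAA, against 409, 593 and 463 with IAA. The count of 5 was 7 without the third IAA array, 3 without the second and 2 without the third PEO-IAA+IAA array, and 0 with both groups alone, where the limma adjusted p was 0.338 for AT5G65320 and 258769_at and 0.308 for AT1G67750.

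AT2G19970 had 291, 595 and 716 with PEO-IAA+IAA, against 1926, 2722 and 827 with IAA (-1.69 ± 0.44, limma adjusted p = 0.137). PR-1-LIKE had 78.0, 168 and 219 with PEO-IAA+IAA, against 357, 772 and 161 with IAA (-1.27 ± 0.42). Without the third IAA array both passed, at -2.18 (0.0281) and -1.82 (0.0368). AT4G37290 had 234, 280 and 357 with PEO-IAA+IAA, against 270, 250 and 263 with IAA, which overlapped (0.13 ± 0.34).

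**Figure D4:**
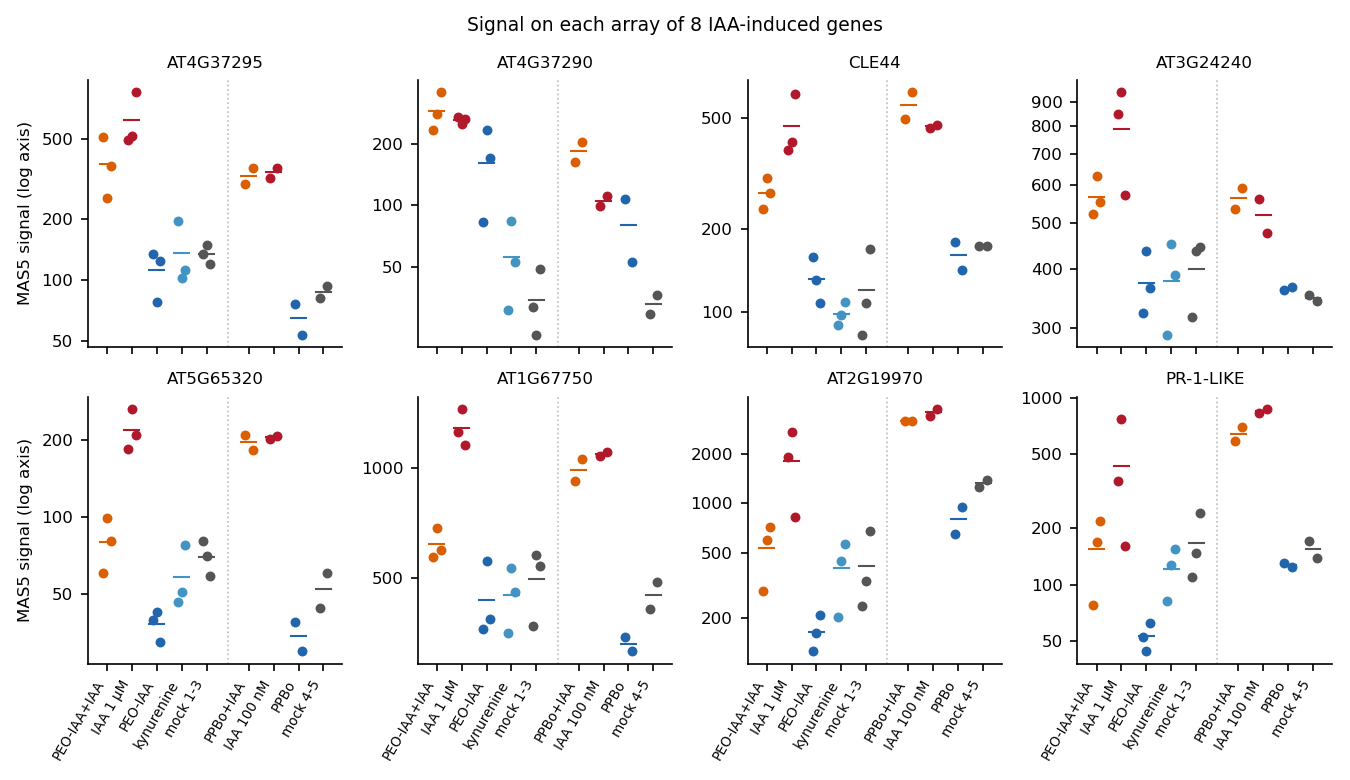
Signal on each array (points, log axis, line at the group mean) of 8 members that name 1 gene, by group, with replicates 1 to 3 left and 4 and 5 right of the dotted line. AT5G65320 and AT1G67750 are lower with PEO-IAA+IAA than with 1 µM IAA on every array, AT4G37290 is higher with PEO-IAA than in mock on every array, and in AT2G19970 and PR-1-LIKE the third 1 µM IAA array is the lowest of its group.

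Responses to the inhibitors were also set against each other. Between PEO-IAA and kynurenine, which share their mock, 3 of 74 members were called lower with PEO-IAA and 1 higher, where 0.207% and 0.339% of all tested probe sets were. The lower ones were 262045_at (-1.29 ± 0.18, limma adjusted p = 0.000984), 258618_at (-0.97 ± 0.21, 0.0438) and 255695_at (-0.84 ± 0.16, 0.0189), and the higher one was 257481_at (0.80 ± 0.16, 0.0244). In the first of these the signal was 90.6, 66.2 and 92.4 with PEO-IAA, against 213, 203 and 222 with kynurenine. With replicate numbers as a block, which pair these arrays, 258618_at no longer passed (0.058). EXPA7 was also lower with PEO-IAA than with kynurenine (-1.94 ± 0.39, limma adjusted p = 0.0244), and its part in these calls was not tested. A single call, 262045_at, was left without kynurenine replicate 2 or 3, without PEO-IAA replicate 2 or 3, and with both groups alone.

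The PPBo response differed from the kynurenine response in none of the 74 members by the limma test. At an unadjusted p under 0.05 there were 15 members, and 493 of all 15922 tested probe sets. At the adjusted p, 0.0188% of all tested probe sets were called lower and 0.00628% higher. For 257506_at the difference of the responses was -2.66, and it was called in 8 of 32 alternatives, at adjusted p values down to 0.00061. Its signal was 41.2, 80.8 and 59.6 with kynurenine, against 158, 100 and 76.4 in mock, and 6.92 and 2.15 with PPBo, against 122 and 121 in mock. Doses and replicate sets differed between these inhibitors.

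Of the 15 tested pathway genes, 1 was called lower with kynurenine, 2 with PEO-IAA, 3 with PPBo and 1 with PEO-IAA+IAA against IAA. None was called higher in any of these. Over all tested probe sets 0.0126%, 0.301%, 0.258% and 0.119% were called lower in that order. The calls were GH3.3 with kynurenine, GH3.3 and GH3.5 with PEO-IAA, and GH3.3, IAA29 and HAT2 with PPBo. All of these genes met the rule and were left out by name, so they are no separate set for comparison. GH3.1 was at -0.72 ± 0.40 with kynurenine, -1.09 ± 0.40 with PEO-IAA and -0.96 ± 0.49 with PPBo. IAA30 was at -0.66 ± 0.21, -0.35 ± 0.21 and -0.44 ± 0.26 in that order. Neither gene passed with any of the 3 inhibitors. For PEO-IAA+IAA against IAA the 1 call was GH3.1 (-1.89 ± 0.40, limma adjusted p = 0.0424), and IAA30 was at -0.97 ± 0.21 (0.0602).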

How the data were processed

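Each deposited table gives 1 MAS5 signal per probe set, an intensity on a linear scale, per the submitters' processing notes, with the version not given in the sources used here. The 2% trimmed mean of each array lay near 500.04, so the deposited intensity values were not rescaled. Detection calls were not used here, so low signals are the least certain, and the number of arrays limits the precision. Signals were taken to log2(signal + 7.56), the 10th percentile of all values, a scale that understates changes of dim probe sets. After 64 controls were set aside, the 15922 probe sets with a mean above the 30th percentile were tested with limma 3.58.1 (R 4.3.3; trended prior), on all 23 arrays as 9 group means with 14 residual degrees of freedom. In each of 6 contrasts the Benjamini-Hochberg method was applied over all tested probe sets, with calls at an adjusted p below 0.05.

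Names came from the platform annotation, updated to the TAIR10.1 gene table (13513 probe sets named 1 gene and 13436 matched, 503 named several and 8794 none). The members and the pathway lists were chosen with earlier results of these data known. Of members all 21 naming 1 gene may be named, with values per array for those called, the highest by smallest difference and a few unnamed ones. The rule named at most 2 unnamed members by ID; further IDs were singled out after their values were seen. Same-numbered arrays deviated together for kynurenine and mock (correlations of 0.432 to 0.631) and for PEO-IAA and mock (0.413 to 0.553). They did so for PEO-IAA and kynurenine too (0.303 to 0.598), so these numbers pair the arrays. For PPBo and mock they did not (0.0339). Nor did they for PEO-IAA+IAA and IAA (-0.14 to 0.0132), though PEO-IAA+IAA and mock did (0.491 to 0.635). The part of the third IAA array in this was not tested. The limma step was tested on simulated data. Promoter motifs were not analysed here.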

Additional observations from a re-analysis of the deposited data

How the results depend on the processing

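The rule gave 69 to 78 members when each array was left out, 49 with a minimum mean signal of 200 and 14 with a minimum difference of 1. Called members numbered as follows with 1 array left out: 0 to 1 with kynurenine, 6 to 13 with PEO-IAA, 4 to 21 with PPBo, 2 to 7 for PEO-IAA+IAA against IAA, 1 to 4 for PEO-IAA against kynurenine and 0 to 1 for PPBo against kynurenine responses. With the replicate block the counts were 1, 12, 16, 6, 3 and 0 in that order, against 1, 11, 17, 5, 4 and 0, and of the probe sets printed in the text the block ended the call of 258618_at alone. With the block and without the third IAA array they were 4 with kynurenine, 18 with PEO-IAA, 20 for PEO-IAA+IAA against IAA, 8 for PEO-IAA against kynurenine and 1 for the last.

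Array weights gave 4 with kynurenine, 10 for PEO-IAA+IAA against IAA and 4 for PPBo against kynurenine. Only the groups of a contrast gave 0 with kynurenine, 4 with PEO-IAA, 26 with PPBo, 0 for PEO-IAA+IAA against IAA and 1 for PEO-IAA against kynurenine, and only replicates of the same numbers 0, 27 with PPBo, 3 and 1. Mock replicates 1 to 5 as 1 control gave 2 with kynurenine, 1 for PEO-IAA against kynurenine and 6 for PPBo against kynurenine. The filter at the 50th percentile, which tested 49 members, gave 0 with kynurenine, 9 with PPBo and 3 for PEO-IAA+IAA against IAA. Pseudocounts of 30.2 and 1.89 gave 0 with kynurenine and 1 for PPBo against kynurenine. The cause of these moves was not tested. No call of a named or listed probe set reversed under any alternative run. Motif windows were not run.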

Other observations

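Mock levels of some members differed between the replicate sets, a difference that was not tested because the labels do not say what else differed between them. AT2G19970 had 234, 337 and 680 in mock replicates 1 to 3 and 1265 and 1389 in replicates 4 and 5. AT5G57340 had 96.7, 129 and 121 in the first set and 210 and 207 in the second. AT1G59740 ran the other way, with 249, 201 and 199 in the first set and 102 and 145 in the second. AT4G37290 had 31.9, 23.4 and 48.9 in the first set, close to 29.7 and 36.7 in the second.

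The unnamed 252681_at, singled out after its values were seen, gave the largest difference of any member with 1 µM IAA, 5.28, and 1.04 with 100 nM IAA. It had 908, 833 and 386 with 1 µM IAA, against 1.55, 3.84 and 41.9 in mock, and 34.1 and 24.5 with 100 nM IAA, against 20.2 and 3.73 in mock. Outside the 1 µM IAA and PEO-IAA+IAA groups its arrays reached at most 46.1, under the test filter of 61.8. With PPBo+IAA, labelled 1 µM IAA, it had 46.1 and 22.4, against 4.11 and 1.61 with PPBo. The difference with 100 nM IAA therefore rests on low signals in both groups, and that with 1 µM IAA on a low mock. Such low signals are the least certain.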
